A study of Mus musculus with 8 samples.

Results

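The TNF superfamily genes of the mouse were followed in chromatin accessibility data from type 1 conventional dendritic cells (cDC1s) sorted from B16-OVA tumours. Members were all protein-coding genes whose symbol starts with Tnfsf or Tnfrsf, together with Tnf, Lta and Ltb. This gave 35 genes, 15 ligands and 20 receptors, of 21887 protein-coding genes. ATAC-seq, which cuts and tags open DNA with a transposase, was done on 8 libraries from wild type mice, 4 of cDC1s taken 7 days and 4 of cDC1s taken 21 days after tumour inoculation. B16-OVA cells are mouse melanoma cells made to express ovalbumin, an antigen that T cell studies often use. The comparison asks how the chromatin of these genes differs between the early and the late tumour. No tumour-free control and no other genotype is analysed here, and the labels give the day of sorting as the one difference between the groups. Nothing in the labels tells if each library stands for its own mouse or pool, so the p-values reflect only how far these libraries scatter.

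Ligands of the TNF superfamily are mostly trimeric membrane proteins, some of which are shed, and their receptors signal through TRAF adaptors to NF-kB or, where they carry a death domain, to caspases. On mature dendritic cells the ligands OX40L, 4-1BBL, CD70 and GITRL give costimulation to T cells, whose receptors for them are OX40, 4-1BB, CD27 and GITR. BAFF and APRIL maintain B cells and plasma cells, TNF and the lymphotoxins drive inflammation and lymphoid tissue, and RANKL with RANK acts on bone and on dendritic cell survival.

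For each gene, the deposited counts of all regions within 1000 bp of either annotated end were summed (gene ends), and the regions outside all such windows with that gene as the nearest, within 50 kb, were summed apart from them (distal regions). Values are CPM, read counts scaled to a common library size with TMM factors, and fold changes are log2 of day 21 over day 7, so a negative value is a lower level at day 21. Calls are at an adjusted p under 0.05 from edgeR's quasi-likelihood test with Benjamini-Hochberg adjustment over all genes or all regions tested. Of the 35 members, 30 had a region at an end and 31 had a distal region, and all of these passed the filter on low counts. No gene-end region was called at Tnfsf11, Tnfrsf9, Tnfrsf11b, Tnfrsf13b or Tnfrsf17, and no distal region was assigned to Tnfsf13, Tnfrsf12a, Tnfrsf23 or Tnfrsf25. Region coordinates (mm10) are printed as the deposited table gives them, without a statement of whether it counts from 0 or 1, and whether a region inside a gene is exonic or intronic was not read. Libraries held 9440223 to 16063736 counts in regions at day 7 and 14021151 to 27737040 at day 21. In a bulk measurement, fewer cells of a type and less open chromatin per cell cannot be told apart.

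More ligands than receptors were lower at their ends at day 21. Of 14 ligands tested at gene ends, 8 were lower, 2 were higher and 4 did not pass, with a median log2 fold change of -0.27. Of 16 receptors, 3 were lower, 2 were higher and 11 did not pass, with a median of -0.03. Over all 13572 genes tested at their ends, 24.6% were called lower and 6.71% higher, with a median of -0.09, and 31.3% in all. The days did not overlap in 7 ligands and 5 receptors, and in 26.5% of all genes. The receptor share of 18.8% lower was therefore near or under that of all genes, and the ligand share of 57.1% was above it. Tnf and Lta share their only gene-end region and so carry the same sum. With this sum counted once, 7 of 13 ligands were lower. Without regions that touch the windows of 2 or more genes, 5 of 9 ligands tested were lower. With offsets that follow mean abundance, which moved the median of all genes to -0.0044, 5 of 14 were lower. The shares of all genes in these 2 settings were not counted, so 24.6% is not their measure. With starts only 3 of 8 ligands were lower, beside 26.7% of all genes. The 2 higher ligands became 1 without replicate 3 or 4 of day 7 or replicate 1, 2 or 3 of day 21, and the 2 higher receptors became 1 without replicate 1 or 2 of day 7 or replicate 2, 3 or 4 of day 21.

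Away from the gene ends the members that changed were nearly all lower, in both classes. Of 14 ligands with distal regions, 7 were lower, 1 was higher and 6 did not pass, with a median of -0.32. Tnfsf12 and Tnfsfm13 share their distal regions and carry the same sum. With it counted once, 7 of 13 were lower and 5 did not pass, with a median of -0.29. Without replicate 1 of day 7, 4 ligands were lower. Among the fits that left out 1 library, the higher ligand, Ltb, kept its call only without replicate 3 of day 7, and it kept it in the other alternatives. Of 17 receptors, 10 were lower, none was higher and 7 did not pass, with a median of -0.28. At an unadjusted p under 0.05, 1 receptor, Tnfrsf1a, was higher. By DESeq2 or limma-voom, as in the main fit, no receptor was higher at an adjusted p under 0.05. Without replicate 4 of day 7, 1 was called higher. Over all 14500 genes tested, 11.4% were called lower and 18.3% higher, with a median of 0.04, and 29.7% in all. The days did not overlap in 4 ligands and 8 receptors, and in 27.0% of all genes. The shares of lower members, 50.0% of ligands and 58.8% of receptors, stood opposite to the general direction of distal regions. No test was made of ligands against receptors, since the genes were chosen by name with earlier results of these data known.

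Summed over the regions of a class, each counted once, the 119 distal regions of ligands held 711, 709, 757 and 750.5 CPM at day 7 and 646, 643, 695 and 672 CPM at day 21. The 133 distal regions of receptors held 785, 744, 792 and 763 CPM at day 7 and 666, 651, 689.9 and 665 CPM at day 21. For both classes every library of day 21 was under every library of day 7. The 34 gene-end regions of receptors held 335 to 371 CPM at day 7 and 329 to 352 CPM at day 21, and those ranges overlapped.

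**Figure D1:**
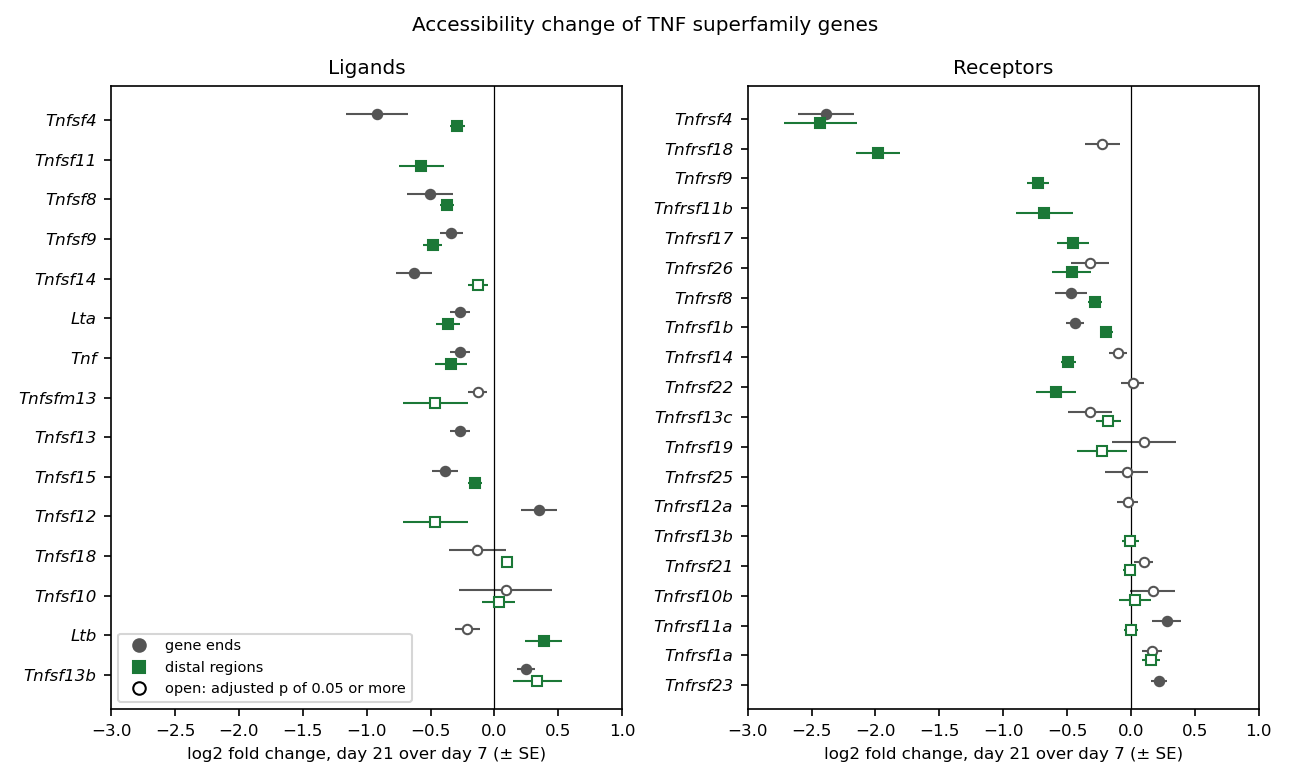
Log2 fold change of accessibility (day 21 over day 7, x axis, ± SE) of each ligand (left) and receptor (right) at its gene ends (circles) and in its distal regions (squares), open where the adjusted p was 0.05 or more. Most points lie left of 0, and Tnfrsf4 and the distal regions of Tnfrsf18 stand farthest to the left, at about -2 or lower.

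Single regions of the members were also called lower more often than higher. The members held 303 different regions, of which 284 passed the filter on low counts. At an adjusted p under 0.05, 68 of them (23.9%) were lower and 10 (3.52%) were higher, where 9.86% of all 121865 regions tested were lower and 9.50% higher, 19.4% in all. At least a 2-fold fall was found in 38 of the lower regions, and 1 of the higher regions rose at least 2-fold. Of the 51 gene-end regions 16 were lower (31.4%) and 2 higher, and of the 233 distal regions tested 52 were lower (22.3%) and 8 higher. The shares over all regions pool both kinds and were not split. As sums per gene, the kinds differed over all genes, with 24.6% lower and 6.71% higher at gene ends and 11.4% and 18.3% in distal regions. In Tnfrsf4 and Tnf every region was lower. In the other members with a lower region, at least 1 region of the same gene did not pass.

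**Figure D2:**
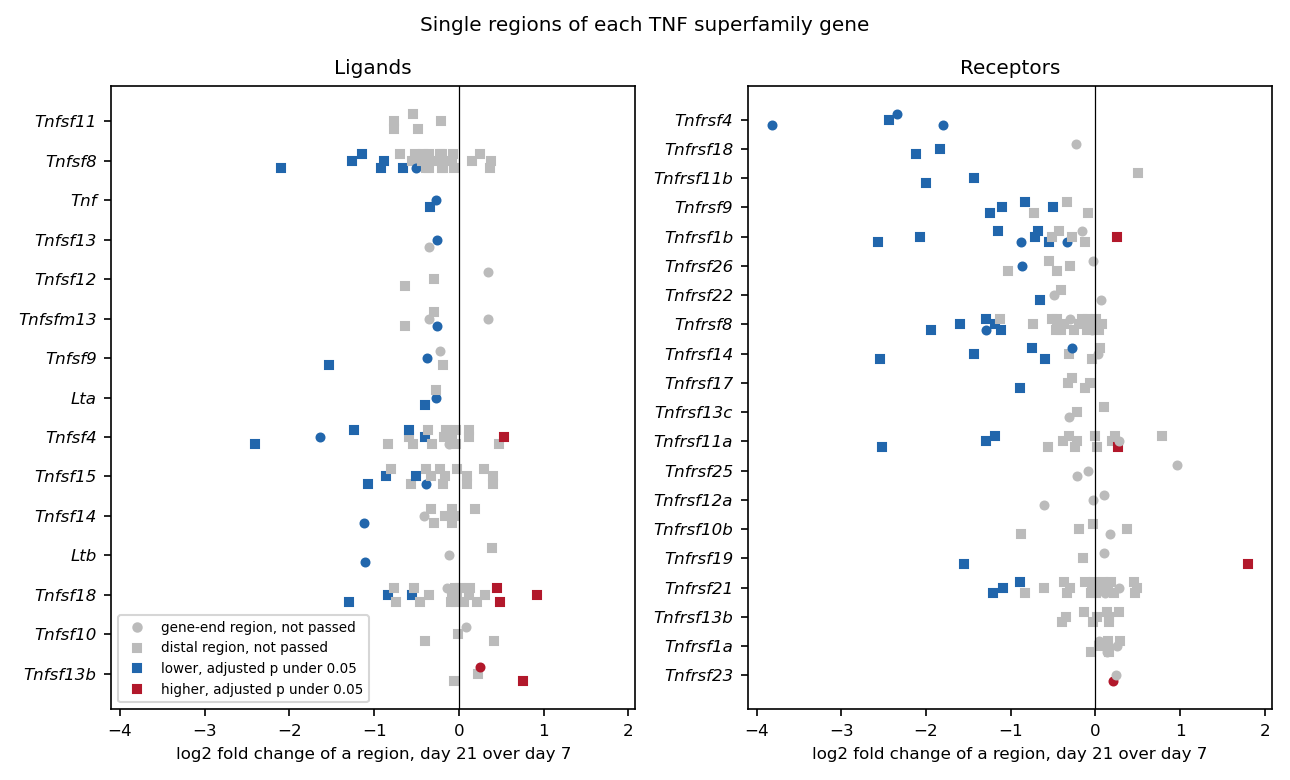
Log2 fold change (day 21 over day 7, x axis) of every tested region of each ligand (left) and receptor (right), circles for gene-end and squares for distal regions, blue for lower and red for higher at an adjusted p under 0.05 and grey for the rest. The 68 lower regions reach -3.82 at Tnfrsf4, and the single higher region beyond 1 belongs to Tnfrsf19.

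The receptors with the steepest falls were neighbours on chromosome 4. Tnfrsf4 encodes OX40 (chr4:156013595-156016613, plus strand, build GRCm38.p6) and Tnfrsf18 encodes GITR (chr4:156026322-156028894, plus strand), both known as costimulatory receptors of activated and regulatory T cells. At the ends of Tnfrsf4 the day 7 libraries held 6.81, 9.56, 9.78 and 9.88 CPM and the day 21 libraries 2.88, 1.02, 1.71 and 1.46 CPM. All day 7 libraries were above all day 21 libraries, with replicate 1 the lowest of day 7 and replicate 1 the highest of day 21. The mean fell from 9.01 ± 1.47 to 1.77 ± 0.795 CPM (SD, n = 4 each; log2 fold change -2.39 ± 0.22 (SE), adjusted p = 8.42e-14), a 5.23-fold difference. These values rest on 82 to 159 counts per library at day 7 and 17 to 41 at day 21. Over all genes tested at their ends, 160 of 13572 were called lower by at least 2-fold, and Tnfrsf4 was the only one of the 30 members tested there among them.

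The distal regions of both receptors fell as far. Those of Tnfrsf18 held 15.4, 15.1, 14.6 and 14.1 CPM at day 7 and 6.40, 1.93, 3.07 and 3.81 CPM at day 21 (log2 fold change -1.98 ± 0.17 (SE), adjusted p = 4.51e-15). The distal region of Tnfrsf4 held 7.56, 4.25, 3.54 and 7.21 CPM at day 7 and 2.04, 0.602, 0.589 and 1.07 CPM at day 21 (log2 fold change -2.43 ± 0.29 (SE), adjusted p = 2.87e-10). Neither pair of days overlapped, and again replicate 1 was the highest library of day 21. Without that library the log2 fold changes were -2.30 for Tnfrsf18 distal, -2.85 for Tnfrsf4 distal and -2.69 for the ends of Tnfrsf4.

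Across the 23.1 kb that hold the 7 regions of these 2 genes, 6 regions were lower and 1 did not pass. The region that did not pass covers the start of Tnfrsf18 (chr4:156025800-156026718), with 9.97, 9.14, 9.95 and 9.38 CPM at day 7 and 8.72, 8.54, 6.96 and 8.64 CPM at day 21 (log2 fold change -0.22 ± 0.14 (SE), adjusted p = 0.281). Its libraries did not overlap between the days, but the difference did not pass over all regions. With windows of 2000 bp the ends of the gene were lower (-0.80, adjusted p = 1.92e-07), since these take in the downstream region described next. On one side of it, chr4:156021647-156022609 fell from 6.88 ± 0.464 to 1.98 ± 0.705 CPM (log2 fold change -1.83 ± 0.22 (SE), adjusted p = 9.67e-10). On the other side, downstream of the gene, chr4:156030653-156031106 fell from 7.92 ± 0.241 to 1.82 ± 1.35 CPM (log2 fold change -2.12 ± 0.25 (SE), adjusted p = 1.43e-09). The start of the GITR gene thus kept most of its day 7 accessibility between 2 regions that lost most of theirs.

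At Tnfrsf4 all 3 gene-end regions and the distal region fell. The region 1.14 kb before the gene (chr4:156012282-156012635), which lies inside the annotated neighbour Sdf4, held 4.49, 5.10, 6.66 and 5.72 CPM at day 7 and 1.62, 0.602, 1.18 and 0.996 CPM at day 21 (log2 fold change -2.34 ± 0.26 (SE), adjusted p = 9.43e-11). The region just inside the start (chr4:156013650-156014026) fell from 1.86 to 0.551 CPM (log2 fold change -1.81 ± 0.43 (SE), adjusted p = 0.00116). The region at the 3′ end (chr4:156016584-156016778) held 0.664, 2.55, 1.6 and 1.80 CPM at day 7 and 0.141, 0.180, 0.118 and 0.0356 CPM at day 21 and had the most negative fold change of all 284 tested (log2 fold change -3.82 ± 0.59 (SE), adjusted p = 1.12e-06). Both regions nearest the start also fall in the windows of Sdf4. With those left out, only the 3′ end region remained, so the log2 fold change of -3.83 for the ends of Tnfrsf4 repeats its value. That region held very few reads at day 21, and the size of its fall is uncertain.

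**Figure D3:**
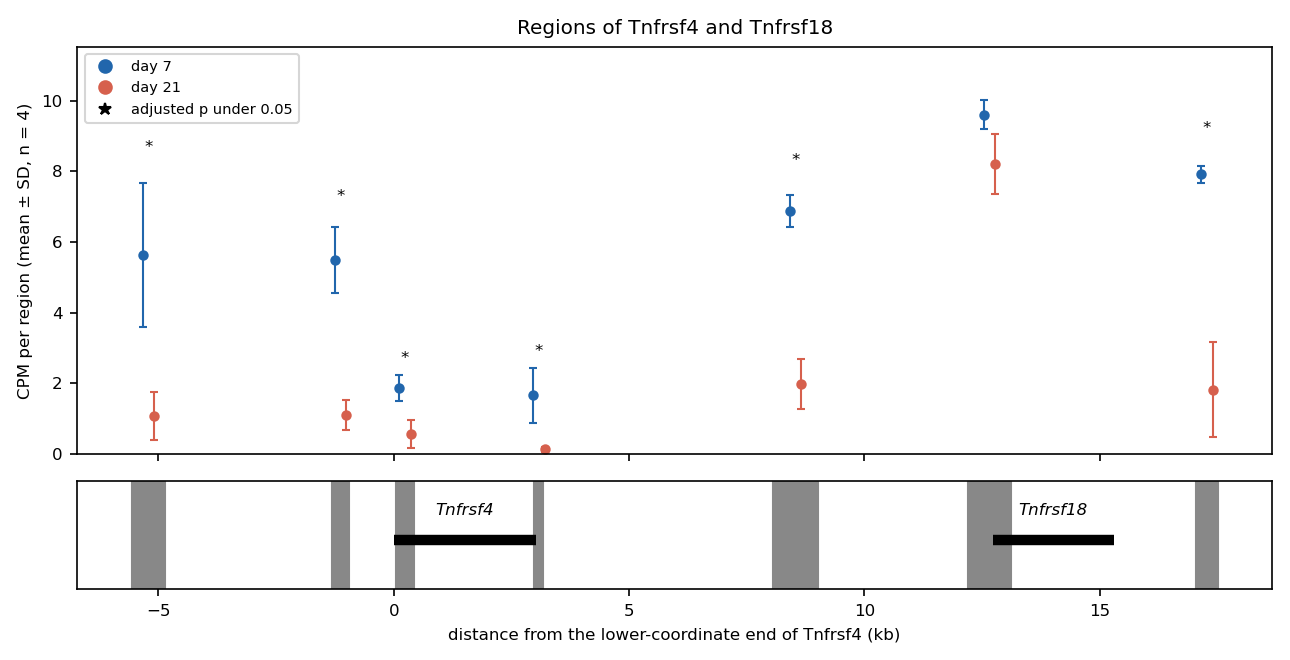
CPM of each region (upper panel, mean ± SD, n = 4 libraries per day, blue for day 7 and red for day 21, asterisk for an adjusted p under 0.05) against distance from the lower-coordinate end of Tnfrsf4 in kb, with both genes and the regions drawn to scale below. Day 21 was called lower in 6 of 7 regions, and the region over the start of Tnfrsf18 is the one without an asterisk.

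Markers of other cells were read beside these receptors. Over all genes, 24.6% were lower and 6.71% higher at their ends, and 11.4% lower and 18.3% higher in distal regions. Of 20 genes listed as markers of T and NK cells, 14 were tested at gene ends, of which 7 were lower and 1 higher, and 17 in distal regions, of which 9 were lower and 1 higher. Their summed level at gene ends ran from 106 to 123 CPM at day 7 and from 98.1 to 109 CPM at day 21, and in distal regions from 406 to 431 CPM at day 7 and from 335 to 362 CPM at day 21. The T cell factors Tcf7 and Bcl11b were among the lower genes in both places (distal -1.40 and -1.48). The higher gene was Klrb1c at the ends (0.51, but -0.29 in distal regions) and Cd4 in distal regions (0.20). The T cell receptor subunit gene Cd3e stood at 1.07 ± 0.647 CPM at day 7 and 0.977 ± 0.457 CPM at day 21 at its ends, with no call. No region was called at the ends of Trac, Lck or Ncr1, and Cd3g and Zap70 were among the genes under the filter there. The part of such cells in the fall of OX40 and GITR was not tested.

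Markers of mature dendritic cells were also lower in part. Of 10 such genes 5 were lower at gene ends and 5 did not pass, and their summed level ran from 303 to 309 CPM at day 7 and from 235 to 259 CPM at day 21. In distal regions 5 were lower and 2 higher, with sums of 1043 to 1125 CPM at day 7 and 978 to 1078 CPM at day 21. The chemokine receptor gene Ccr7, which guides dendritic cells to lymph nodes, fell from 32.4 ± 2.34 to 12.7 ± 3.21 CPM at its ends (-1.36), and Fscn1, which encodes the actin bundler fascin, from 14.1 ± 4.10 to 4.10 ± 1.09 CPM (-1.76). The 5 that did not pass at their ends were Ccl17, Cd40, Cd80, Cd83 and Cd86. Higher in distal regions were Ccl17 (0.32) and Cd83 (0.16). The part of a changed share of mature cells in the results on TNF superfamily genes was not tested. Of 12 markers of cDC1s, 11 were tested at gene ends, with 2 higher and 1 lower and summed levels of 514 to 547 CPM at day 7 and 525 to 569.6 CPM at day 21, so most marker genes of the labelled cell type were open on both days. In their distal regions 6 of 10 were higher. Itgae had no region at its ends. Markers of macrophages and monocytes were higher at the ends of 3 of 12 genes, with sums of 67.9 to 76.5 CPM at day 7 and 78.5 to 84.3 CPM at day 21, and the other 9 did not pass. Away from the ends, 3 of these 12 genes were higher, 2 were lower and 7 did not pass. Their distal sums overlapped, with 377 to 427 CPM at day 7 and 405 to 415 CPM at day 21.

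Melanoma markers were mixed. At gene ends 2 of 5 were lower, 1 was higher and 2 did not pass, with sums of 164 to 178 CPM at day 7 and 162 to 174 CPM at day 21. Most of these sums lay at Pmel (means of 123 and 116 CPM, not passed) and Mitf (40.4 and 46.3 CPM). The pigment enzyme gene Tyrp1 (1.32 to 0.301 CPM, -2.23) and the neural crest factor gene Sox10 (1.30 to 0.572 CPM, -1.30) were lower, the factor gene Mitf was higher (0.20), and Tyr had no region. In distal regions Tyrp1 was lower (-2.03) and the other 4 did not pass, with sums of 155 to 161 CPM at day 7 and 139 to 154 CPM at day 21. Of the stromal and endothelial markers, Cdh5 was lower at its ends (-1.02) and in distal regions (-0.22), and the other 4 and 6 did not pass, with sums at the ends of 45.7 to 48.6 CPM at day 7 and 38.0 to 48.3 CPM at day 21. Plasmacytoid dendritic cell markers were lower at the ends of 2 of 3 genes and higher at 1, with sums of 72.7 to 79.0 CPM at day 7 and 66.2 to 69.8 CPM at day 21. Their distal regions were higher at 2 of 4 genes, lower at 1 and did not pass at 1. The distal sums overlapped, with 182 to 187 CPM at day 7 and 185 to 189 CPM at day 21. Of the markers of B and plasma cells, none of 6 was called at gene ends, and 1 of 5 was higher in distal regions. No neutrophil marker was called at its ends (3 tested) or in distal regions (4 tested). The part of these cells in the results was not tested.

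Tnfrsf9 encodes 4-1BB (chr4:150920155-150946104, plus strand), a receptor of activated T cells and NK cells. It had no region within 1000 bp of its ends. Its distal regions held 38.5, 28.8, 35.4 and 32.7 CPM at day 7 and 21.5, 18.8, 21.2 and 20.5 CPM at day 21. All libraries of day 21 were lower (log2 fold change -0.73 ± 0.09 (SE), adjusted p = 1.02e-09). Of 7 tested regions 4 were lower and 3 did not pass. One of these (chr4:150927795-150928164) lies inside the gene and over an internal RefSeq start, and held 6.48, 5.31, 4.89 and 5.09 CPM at day 7 and 3.52, 1.86, 2.36 and 2.49 CPM at day 21 (log2 fold change -1.10 ± 0.21 (SE), adjusted p = 8.40e-05). With windows set around RefSeq starts only, a choice made after seeing the data, the gene had a value of -1.10 (adjusted p = 1.13e-04).

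The 250 bases before this internal start are shown because the region that fell covers motif letters in them. The sequence is from RefSeq (GRCm38.p6, chr4:150927749-150927998, plus strand), with capitals for an NF-kB match and an AP-1 match.
Tnfrsf9: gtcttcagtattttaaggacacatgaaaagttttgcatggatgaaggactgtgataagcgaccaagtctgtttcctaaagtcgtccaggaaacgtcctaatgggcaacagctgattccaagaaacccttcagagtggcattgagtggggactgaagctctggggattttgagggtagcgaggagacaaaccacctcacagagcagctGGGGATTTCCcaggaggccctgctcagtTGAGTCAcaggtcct
The NF-kB letters (GGG, 2 free bases, TTTCC), searched on both strands, were found in 1.63% of 32851 RefSeq windows that run from 250 bases before to 50 bases after a start, and the AP-1 letters TGANTCA, which read the same on both strands, in 7.81%. Among the 28 members with a promoter entry, the NF-kB letters were in 3 (Ltb, Tnfrsf25 and Tnfrsf9) and the AP-1 letters in 5 (Tnfrsf8, Tnfrsf9, Tnfsf13, Tnfsf13b and Tnfsf14). Over the AP-1 letters, the region was lower at Tnfrsf9 (-1.10) and higher at Tnfsf13b (0.25), and those at Tnfrsf8 and Tnfsf14 did not pass. No region covered the AP-1 letters at Tnfsf13. A match describes letters and shows no binding.

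Tnfrsf1b and Tnfrsf8 lie next to each other on chromosome 4 (chr4:145212368-145246870 and chr4:145267132-145315164, both on the minus strand). Tnfrsf1b encodes TNF receptor 2, which lacks a death domain, and Tnfrsf8 encodes CD30. At the ends of Tnfrsf1b the libraries held 49.9, 48.3, 47.8 and 46.8 CPM at day 7 and 34.2, 33.0, 38.7 and 36.0 CPM at day 21, without overlap. The mean fell from 48.2 ± 1.28 to 35.5 ± 2.49 CPM (SD, n = 4 each; log2 fold change -0.44 ± 0.07 (SE), adjusted p = 1.88e-06). The distal regions held 163, 148, 164 and 159.6 CPM at day 7 and 138, 144, 146 and 129 CPM at day 21 (log2 fold change -0.19 ± 0.05 (SE), adjusted p = 0.00232). The distal change was thus smaller, though again no library overlapped.

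Within Tnfrsf1b, regions moved in both directions. Of 14 tested, 8 were lower, 1 was higher and 5 did not pass. The region over the start (chr4:145246093-145247234) fell from 33.7 to 26.6 CPM (log2 fold change -0.34 ± 0.08 (SE), adjusted p = 0.00137), and the region just upstream of it (chr4:145247574-145248067) from 11.7 to 6.37 CPM (log2 fold change -0.88 ± 0.15 (SE), adjusted p = 9.55e-06). Inside the gene, chr4:145221442-145221865 held 4.49, 3.08, 3.88 and 3.48 CPM at day 7 and 2.11, 0.241, 0.236 and 0.213 CPM at day 21 (log2 fold change -2.57 ± 0.38 (SE), adjusted p = 4.33e-07). Here replicate 1 of day 21 stood between the day 7 libraries and the other 3 of day 21, and without it the log2 fold change was -4.00. A short way off, chr4:145221979-145222408 fell from 3.52 to 0.840 CPM (log2 fold change -2.07 ± 0.32 (SE), adjusted p = 1.02e-06), and upstream of the gene chr4:145254347-145254822 fell from 20.3 to 12.9 CPM (log2 fold change -0.67 ± 0.11 (SE), adjusted p = 8.12e-06). The region that rose, chr4:145233286-145234427, is also inside the gene and went from 42.3 ± 1.32 to 50.5 ± 4.26 CPM (log2 fold change 0.26 ± 0.07 (SE), adjusted p = 0.00705).

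The 250 bases before the start of Tnfrsf1b are shown because they end in letters that match an interferon response core and lie under the start region that fell (RefSeq, GRCm38.p6, chr4:145246871-145247120, minus strand, match in capitals).
Tnfrsf1b: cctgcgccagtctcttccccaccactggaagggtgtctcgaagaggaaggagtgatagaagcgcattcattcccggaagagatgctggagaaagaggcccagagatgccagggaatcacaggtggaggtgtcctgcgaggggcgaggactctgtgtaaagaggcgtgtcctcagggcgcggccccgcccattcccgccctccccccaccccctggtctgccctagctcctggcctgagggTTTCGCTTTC
The core letters (GAAA, 2 free bases, GAAA), searched on both strands, were in 3.44% of these windows and in 4 of the 28 members with an entry, namely Tnfrsf14, Tnfrsf17, Tnfrsf1b and Tnfsf13b. The start regions of Tnfrsf14 and Tnfrsf1b that cover these letters were lower, that of Tnfsf13b was higher, and no region covered them at Tnfrsf17.

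At the ends of Tnfrsf8 the libraries held 13.6, 14.7, 12.8 and 11.6 CPM at day 7 and 10.2, 8.72, 11 and 8.18 CPM at day 21 (log2 fold change -0.47 ± 0.13 (SE), adjusted p = 0.00325). Its distal regions held 124, 100.1, 116 and 117 CPM at day 7 and 95.6, 90.7, 94.2 and 96.6 CPM at day 21 (log2 fold change -0.28 ± 0.06 (SE), adjusted p = 5.47e-05). In both places the days did not overlap. Of the regions at its ends, the one at the 3′ end passed: chr4:145267728-145268131 fell from 3.66 to 1.51 CPM (log2 fold change -1.29 ± 0.27 (SE), adjusted p = 2.68e-04), while the regions near the start at chr4:145315027-145315505 and chr4:145313872-145314229 did not pass (-0.30 and -0.04). With windows of 500 bp, which leave out the 3′ region, the ends of Tnfrsf8 did not pass (-0.30, adjusted p = 0.189). Of the 40 regions tested at both genes together, 14 were lower and 1 was higher.

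Tnfrsf14 encodes HVEM (chr4:154918487-154928620, minus strand), which binds LIGHT and the inhibitory receptor BTLA. Its ends did not pass (49.5 ± 5.41 CPM at day 7 and 46.3 ± 2.82 CPM at day 21, -0.10). Its distal regions held 83.6, 83.4, 84.6 and 79.8 CPM at day 7 and 59.6, 56.9, 60.0 and 59.0 CPM at day 21, well apart (log2 fold change -0.49 ± 0.06 (SE), adjusted p = 4.56e-10). Of the 2 regions at its start, one fell (chr4:154927883-154928661, 22.3 to 18.3 CPM, -0.28) and the other was at 27.2 and 28.0 CPM (0.03, adjusted p = 0.848). The steepest distal fall was 4.43 kb upstream (chr4:154932940-154933159), with 3.82, 6.27, 5.65 and 3.67 CPM at day 7 and 0.422, 0.722, 0.648 and 1.28 CPM at day 21 (log2 fold change -2.54 ± 0.29 (SE), adjusted p = 2.84e-10). A region with more counts, 15.59 kb upstream (chr4:154943773-154944646), fell from 37.9 ± 2.97 to 25.0 ± 1.28 CPM (log2 fold change -0.59 ± 0.08 (SE), adjusted p = 6.33e-08).

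**Figure D4:**
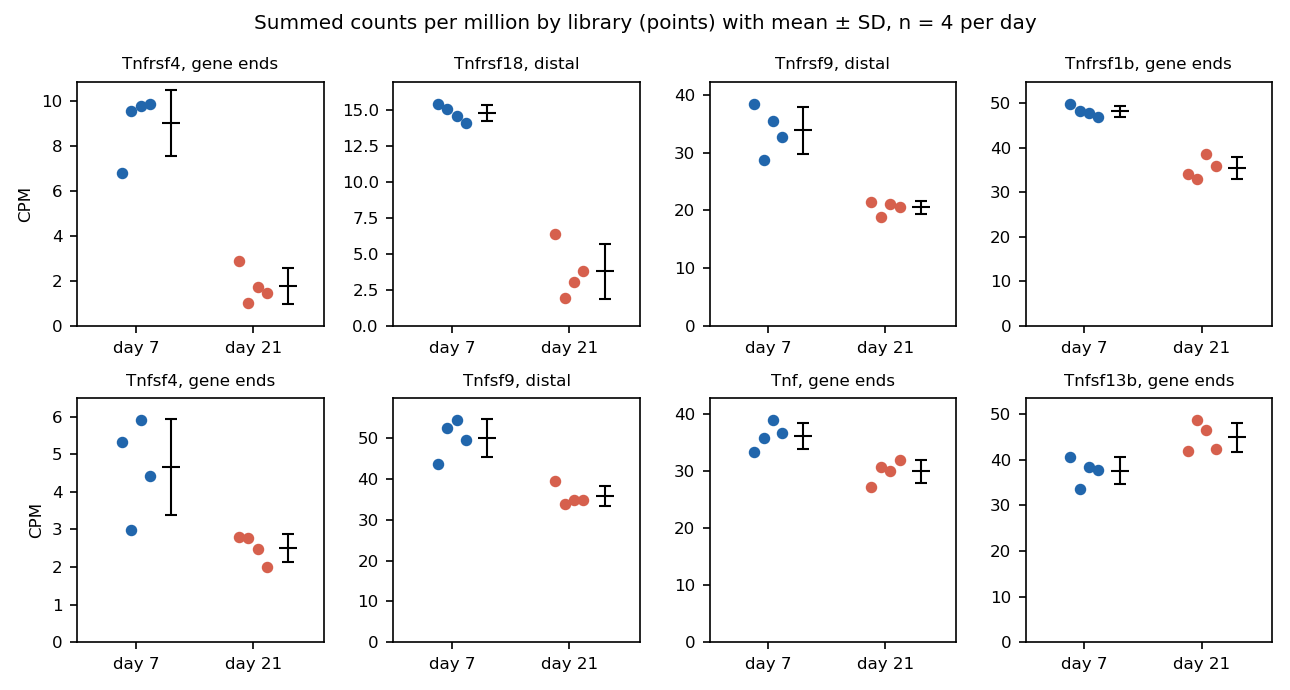
Summed CPM (y axis, from 0) of 8 TNF superfamily genes in each library, with 4 points for day 7 (blue), 4 for day 21 (red) and the mean ± SD beside them. Day 21 lies under day 7 without overlap in 7 panels, and over it in the panel of Tnfsf13b.

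Among the costimulatory ligands of antigen-presenting cells, OX40L and 4-1BBL were lower and GITRL did not pass as a sum. Tnfsf4 encodes OX40L (chr1:161395438-161418206). Its gene ends held 5.32, 2.97, 5.90 and 4.41 CPM at day 7 and 2.81, 2.77, 2.48 and 1.99 CPM at day 21. The days did not overlap, but replicate 2 of day 7 was close to the highest library of day 21. The mean fell from 4.65 ± 1.27 to 2.51 ± 0.377 CPM (log2 fold change -0.92 ± 0.24 (SE), adjusted p = 0.00233). The fall lay in the region over one annotated end (chr1:161395185-161395537), which held 3.07, 2.34, 3.46 and 3.29 CPM at day 7 and 1.69, 0.722, 1.18 and 0.498 CPM at day 21 (log2 fold change -1.64 ± 0.32 (SE), adjusted p = 7.27e-05), while the region 1.12 kb inside that end did not pass (1.61 and 1.49 CPM, -0.12). The reference tables used here give no strand for this gene.

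The distal regions of Tnfsf4 held 118, 95.4, 119 and 113 CPM at day 7 and 88.0, 83.3, 96.4 and 96.4 CPM at day 21 (log2 fold change -0.29 ± 0.06 (SE), adjusted p = 6.79e-05). Replicate 2 of day 7 lay under 2 libraries of day 21, so the days overlapped. Of 18 distal regions tested, 4 were lower and 1 was higher. The region chr1:161382515-161382765, 12.80 kb from the gene, held 1.74, 2.44, 3.20 and 2.49 CPM at day 7 and 0.352, 0.421, 0.589 and 0.462 CPM at day 21 (log2 fold change -2.41 ± 0.38 (SE), adjusted p = 2.03e-06). A region with more counts, chr1:161375150-161377247, fell from 44.8 ± 2.67 to 34.1 ± 4.43 CPM (log2 fold change -0.39 ± 0.08 (SE), adjusted p = 1.21e-04).

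Tnfsf18, which encodes GITRL (chr1:161494657-161505290, plus strand), is the neighbour of Tnfsf4 and had single regions called in both directions. The region just before its start was at 4.11 ± 0.790 CPM at day 7 and 3.78 ± 1.14 CPM at day 21 and its distal regions at 229.7 ± 9.0 and 246 ± 18.4 CPM, and neither passed (adjusted p = 0.685 and 0.12). Among its 22 distal regions 3 were higher and 3 were lower, 13.6% each. Over all regions tested, 9.50% were higher and 9.86% lower, which is not far from these shares. The region chr1:161491761-161492081, 2.74 kb before the gene, rose from 4.65 ± 1.02 to 9.01 ± 1.71 CPM (log2 fold change 0.92 ± 0.17 (SE), adjusted p = 4.12e-05), and chr1:161496258-161496862, just inside it, from 28.7 ± 2.82 to 39.4 ± 3.13 CPM (log2 fold change 0.45 ± 0.08 (SE), adjusted p = 2.19e-05). Beyond the 3′ end, chr1:161506408-161506701 fell from 2.23 ± 0.637 to 0.886 ± 0.443 CPM (log2 fold change -1.30 ± 0.36 (SE), adjusted p = 0.00552). With windows of 2000 bp, which take in the inner region, the ends of Tnfsf18 were called higher (0.32). The 3 regions described here were chosen after their values were seen.

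**Figure D5:**
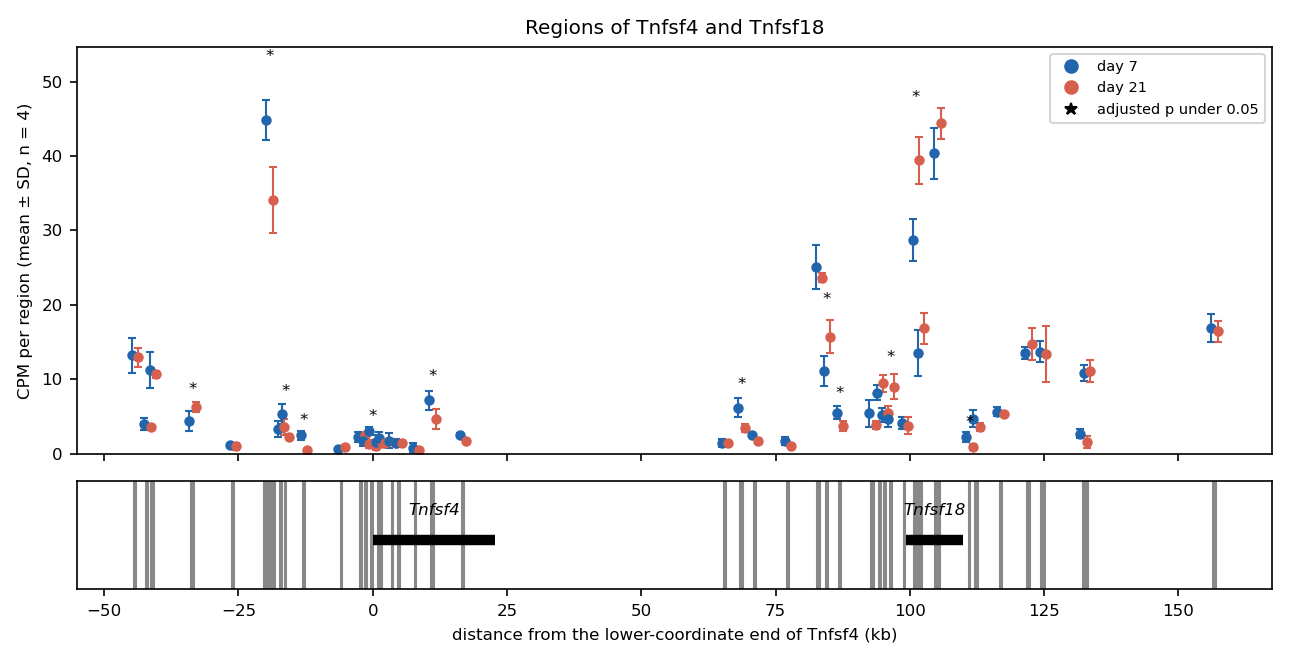
CPM of each tested region of Tnfsf4 and Tnfsf18 (upper panel, mean ± SD, n = 4 libraries per day, blue for day 7 and red for day 21, asterisk for an adjusted p under 0.05) against distance from the lower-coordinate end of Tnfsf4 in kb, with genes and regions to scale below. Of 43 regions 8 were lower and 4 higher, with 3 of the higher ones near Tnfsf18.

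Tnfsf9 encodes 4-1BBL (chr17:57105287-57107758). Its gene ends held 24.3, 24.0, 29.8 and 25.7 CPM at day 7 and 20.5, 19.9, 22.7 and 19.4 CPM at day 21 (log2 fold change -0.34 ± 0.09 (SE), adjusted p = 0.00303). Its distal regions held 43.6, 52.4, 54.3 and 49.6 CPM at day 7 and 39.5, 33.9, 34.8 and 34.9 CPM at day 21 (log2 fold change -0.48 ± 0.07 (SE), adjusted p = 3.60e-07). In both places every day 21 library was under every day 7 library. Most of the fall in the distal sum lay in 1 region 1.22 kb from the gene (chr17:57108771-57109187), with 13.5, 12, 17.7 and 15.5 CPM at day 7 and 6.12, 3.37, 5.19 and 5.55 CPM at day 21. It had the smallest p of all tested regions of the members (log2 fold change -1.54 ± 0.15 (SE), adjusted p = 2.31e-12), while the other distal region tested did not pass.

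Tnfsf8, which encodes CD30 ligand (chr4:63831202-63861508, minus strand), and Tnfsf15, which encodes TL1A (chr4:63724600-63745059, minus strand), are neighbours, and of the 46 regions tested at them 11 were lower and 35 did not pass. Distal regions of Tnfsf8 held 110.1, 125, 129.8 and 127 CPM at day 7 and 94.2, 92.2, 93.8 and 101 CPM at day 21. The days were well apart (log2 fold change -0.37 ± 0.05 (SE), adjusted p = 1.68e-07). At the ends of Tnfsf8 the days overlapped (4.65 to 10.5 CPM at day 7 and 4.21 to 7.03 CPM at day 21), though the test passed (-0.51, adjusted p = 0.0253). That call was lost without replicate 3 or 4 of day 7 or replicate 2 of day 21, and by DESeq2 (adjusted p = 0.0544).

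The single end region of Tnfsf15, centred 0.39 kb upstream of its start, held 17.2, 20.3, 19.0 and 22.3 CPM at day 7 and 14.8, 15.8, 13.9 and 15.9 CPM at day 21, without overlap (log2 fold change -0.38 ± 0.10 (SE), adjusted p = 0.00266). Its distal regions were lower by less (107 and 96.2 CPM, -0.15, adjusted p = 0.0321), and that call was lost without any 1 of replicates 1 to 3 of day 7 or replicate 1 of day 21.

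Tnf, Lta and Ltb encode TNF and the 2 lymphotoxin chains and lie together on chromosome 17 (chr17:35194507-35205578). Of the 7 regions tested there, 4 were lower and 3 did not pass. The region that Tnf and Lta share covers the start of Tnf and lies near the 3′ end of Lta (chr17:35201666-35202789). It held 33.4, 35.8, 38.9 and 36.6 CPM at day 7 and 27.1, 30.7, 30.1 and 31.9 CPM at day 21. Every library of day 21 was lower (log2 fold change -0.27 ± 0.08 (SE), adjusted p = 0.00598 in the fit over gene ends). With offsets that follow mean abundance, which move the median of all gene ends from -0.09 to -0.0044, the value was -0.16 and did not pass (adjusted p = 0.105).

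The single distal region of Tnf, inside the gene, held 13.4, 11.8, 13.0 and 14.5 CPM at day 7 and 9.98, 9.51, 12.7 and 9.78 CPM at day 21 (log2 fold change -0.34 ± 0.12 (SE), adjusted p = 0.0316). Here replicate 3 of day 21 overlapped the day 7 libraries. This call was lost when any 1 of 6 libraries was left out (replicate 1, 3 or 4 of day 7, replicate 1, 2 or 4 of day 21), with adjusted p-values up to 0.131. The distal regions of Lta held 21.7, 24.1, 23.1 and 23.7 CPM at day 7 and 18.1, 16.2, 18.4 and 19.1 CPM at day 21, without overlap (log2 fold change -0.36 ± 0.10 (SE), adjusted p = 0.00234).

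The promoter of Tnf is shown as the sequence under that shared region (RefSeq, GRCm38.p6, chr17:35202008-35202257, minus strand). None of the 5 motifs searched was found in this window by its letters, so no base is in capitals.
Tnf: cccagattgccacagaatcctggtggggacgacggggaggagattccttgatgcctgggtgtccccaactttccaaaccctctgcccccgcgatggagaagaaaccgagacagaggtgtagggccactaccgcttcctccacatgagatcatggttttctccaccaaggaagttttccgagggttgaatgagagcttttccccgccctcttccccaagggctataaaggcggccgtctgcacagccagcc
The other motifs searched on both strands were GGAA, 2 free bases and GAAA for ETS-IRF composite sites (2.72% of these windows, no member) and TGTGGTT for Runx factors (5.27% of them, the members Tnfrsf13c and Tnfsf14).

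Ltb had values of opposite sign at its ends and in its distal region. Its gene ends held 25.3, 20.8, 22.4 and 27.0 CPM at day 7 and 18.2, 18, 22.7 and 23.7 CPM at day 21, which overlapped and did not pass (log2 fold change -0.21 ± 0.10 (SE), adjusted p = 0.0867). Within them, the region at the start (chr17:35194346-35194547) held 1.91, 3.72, 3.88 and 2.61 CPM at day 7 and 1.34, 0.722, 1.59 and 1.81 CPM at day 21 and was lower in every library of day 21 (log2 fold change -1.10 ± 0.29 (SE), adjusted p = 0.00413). The larger region inside the gene (chr17:35195246-35196007) did not pass (20.9 and 19.3 CPM, -0.12). The distal region rose, with 6.64, 6.37, 7.59 and 6.77 CPM at day 7 and 8.72, 9.32, 9.37 and 8.50 CPM at day 21 (log2 fold change 0.39 ± 0.15 (SE), adjusted p = 0.0355), but leaving out any 1 library other than replicate 3 of day 7 took its adjusted p over 0.05, and as a single region it did not pass.

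The 250 bases before the start of Ltb are shown because the start region that fell covers an NF-kB match, in capitals on the opposite strand (RefSeq, GRCm38.p6, chr17:35194257-35194506, plus strand).
Ltb: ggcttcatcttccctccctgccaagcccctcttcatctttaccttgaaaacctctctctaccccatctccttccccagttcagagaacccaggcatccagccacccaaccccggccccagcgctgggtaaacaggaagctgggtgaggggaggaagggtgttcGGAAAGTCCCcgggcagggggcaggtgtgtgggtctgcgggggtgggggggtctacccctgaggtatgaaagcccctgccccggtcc
Of the 3 members with these letters, Ltb and Tnfrsf9 had a region over them and both of those regions were lower, and Tnfrsf25 had no region over them.

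Tnfrsf1a, which encodes the death domain receptor of TNF, had values of opposite sign to Tnf and Tnfrsf1b and did not pass. Its ends held 35.5, 31.6, 31.4 and 33.9 CPM at day 7 and 32.8, 38.4, 42.8 and 34.8 CPM at day 21 (log2 fold change 0.17 ± 0.08 (SE), adjusted p = 0.0978). Its distal regions held 43.4, 41.0, 47.0 and 50.1 CPM at day 7 and 49.0, 49.4, 56.3 and 49.1 CPM at day 21 (log2 fold change 0.16 ± 0.07 (SE), adjusted p = 0.0768). The days overlapped in both places, and none of its 9 regions was called. With offsets that follow mean abundance its ends were called higher (0.27, adjusted p = 0.00527). The TNF receptors 1 and 2 thus differed in call at their ends, and the difference between them was not tested.

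Tnfsf14 encodes LIGHT, the partner of HVEM. Its ends fell from 11.6 ± 1.77 to 7.51 ± 1.31 CPM (log2 fold change -0.63 ± 0.14 (SE), adjusted p = 4.13e-04), with the lowest library of day 7 and the highest of day 21 both at 9.14 CPM. With starts only, this call was lost, narrowly (-0.41). Of its end regions, the 3′ one was lower (4.10 to 1.9 CPM, -1.12), and the start region did not pass (-0.41, adjusted p = 0.0758). Its distal regions did not pass (-0.13, adjusted p = 0.225).

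In the B cell survival branch, BAFF was higher and APRIL lower at their ends. Tnfsf13b encodes BAFF (chr8:10006229-10036000, plus strand) and was among the few members that rose. Its end region, near the start, held 40.6, 33.6, 38.4 and 37.8 CPM at day 7 and 42.0, 48.6, 46.5 and 42.2 CPM at day 21. Every library of day 21 was higher (log2 fold change 0.25 ± 0.07 (SE), adjusted p = 0.00643), and the call held in all alternatives tried. Its distal regions did not pass as a sum (0.34, adjusted p = 0.179), while 1 of them inside the gene rose from 1.69 to 2.82 CPM (0.76, adjusted p = 0.0449).

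Tnfsf13 encodes APRIL. Its end regions held 33.9, 34.6, 34.3 and 34.1 CPM at day 7 and 26.2, 29.5, 32.2 and 25.8 CPM at day 21 (log2 fold change -0.27 ± 0.08 (SE), adjusted p = 0.00686), without overlap, but both lie near its 3′ end and also in the windows of Senp3, and no region covered its start. The call was lost with offsets that follow mean abundance (adjusted p = 0.0991) and without replicate 4 of day 21 (adjusted p = 0.0504). Tnfsf12, which encodes TWEAK, rose at its end region by 0.35 (adjusted p = 0.0489) in overlapping libraries, and the call was lost in 3 other fits and without any 1 of 5 libraries. Tnfsfm13 is a readthrough of Tnfsf12 and Tnfsf13 and shares all its regions with them. Its sum did not pass (-0.13), with the start region at 0.35 and the regions at the other end at -0.26 and -0.35.

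The receptors of BAFF and APRIL were not called higher. Tnfrsf17, which encodes BCMA, had distal regions of 14.0, 16.3, 13.8 and 15.8 CPM at day 7 and 11.9, 9.93, 8.55 and 13.0 CPM at day 21, without overlap (log2 fold change -0.45 ± 0.12 (SE), adjusted p = 0.00328). This fall lay mainly in a region 27.16 kb away and the sum within 20 kb did not pass (-0.20, adjusted p = 0.357). Tnfrsf13b, which encodes TACI, had distal regions at 57.2 ± 4.00 and 56.8 ± 2.56 CPM (-0.00 ± 0.06 SE), and none of its 9 regions was called. Tnfrsf13c, which encodes the BAFF receptor, did not pass at its ends (-0.32, adjusted p = 0.157) or in its distal regions (-0.18, adjusted p = 0.158).

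The RANK system showed mixed calls. Tnfsf11, which encodes RANKL, had no gene-end region, and its distal regions fell from 7.14 ± 1.21 to 4.73 ± 1.02 CPM (log2 fold change -0.57 ± 0.18 (SE), adjusted p = 0.00947), although none of its 5 regions passed alone and the call was lost at limits of 20 kb and 100 kb and without replicate 1 of day 7. Tnfrsf11a, which encodes RANK, rose at its start region from 14.9 ± 2.75 to 18.1 ± 2.46 CPM (log2 fold change 0.28 ± 0.11 (SE), adjusted p = 0.0469) in overlapping libraries. The call for Tnfrsf11a was lost without any 1 of 5 libraries, by the DESeq2 Wald test (adjusted p = 0.0973) and without shared regions (0.0513). Its distal sum was level (83.5 ± 2.86 and 83.6 ± 3.32 CPM, 0.00 ± 0.06 SE), yet it held 3 lower regions and 1 higher one. The steepest, chosen after its value was seen and 4.03 kb before the gene, fell from 2.40 to 0.407 CPM (-2.52, adjusted p = 2.17e-06). Tnfrsf11b, which encodes the decoy receptor osteoprotegerin, had only 3 distal regions and fell from 4.89 ± 0.922 to 3.09 ± 0.942 CPM (-0.68, adjusted p = 0.0145), a call lost without replicate 1 of day 7 or replicate 2 or 4 of day 21.

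The TRAIL branch showed few calls. Tnfsf10, which encodes TRAIL, did not pass at its ends (1.40 and 1.49 CPM) or in its distal regions (11.3 and 11.7 CPM), and neither did its death receptor gene Tnfrsf10b (0.17 and 0.03). The mouse decoy receptor genes Tnfrsf22 and Tnfrsf23 and their neighbour Tnfrsf26 lie in a row on chromosome 7 (chr7:143607685-143686436). There 2 of 12 regions were lower and 1 was higher, beside 9.86% lower and 9.50% higher of all regions tested. The ends of Tnfrsf23 held 46.8, 47.0, 55.2 and 53.2 CPM at day 7 and 57.1, 63.2, 58.9 and 57.2 CPM at day 21, and every day 21 library was higher (log2 fold change 0.22 ± 0.07 (SE), adjusted p = 0.00722). The ends of Tnfrsf22 differed in sign without passing (-0.49 and 0.07), and its distal regions held 8.64, 8.07, 8.43 and 7.64 CPM at day 7 and 5.63, 4.39, 5.78 and 5.91 CPM at day 21, lower without overlap (log2 fold change -0.59 ± 0.16 (SE), adjusted p = 0.00281). Tnfrsf26 was lower in its distal regions (-0.47, adjusted p = 0.0136), a call lost without replicate 1 of day 7 or replicate 4 of day 21, and did not pass at its ends (-0.32, adjusted p = 0.0916). These genes are close relatives, and their values are uncertain where a read fits several of them.

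The remaining receptors did not pass as sums, and single regions named for them were chosen after their values were seen. Tnfrsf12a, which encodes the TWEAK receptor, was at 28.0 ± 1.9 and 27.6 ± 1.55 CPM at its ends, with its 3 regions at 0.10, -0.60 and -0.03, none called. Tnfrsf21, which encodes death receptor 6, did not pass at its ends (0.10) or in its distal regions (-0.01), where 3 of 20 regions were lower. Tnfrsf25, the receptor of TL1A, was at -0.03 ± 0.17 SE over 3 end regions that all lie in windows of Plekhg5 or Espn, with single values of -0.09, 0.97 and -0.21 that did not pass. Tnfrsf19 did not pass at its ends or in its distal regions, but held the region with the largest rise of all members, 36.99 kb away, which went from 0.30 to 1.03 CPM (log2 fold change 1.80 ± 0.54 (SE), adjusted p = 0.0125), a low level on both days. Another of its regions, 10.30 kb away, was lower, from 1.49 to 0.498 CPM, with overlapping libraries (log2 fold change -1.55 ± 0.48 (SE), adjusted p = 0.0143).

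Set side by side, ligand and receptor of a pair did not always share a direction. OX40L and OX40 were lower at their ends (-0.92 and -2.39), CD30 ligand and CD30 were lower at their ends (-0.51 and -0.47) and in distal regions (-0.37 and -0.28), and 4-1BBL and 4-1BB were lower in distal regions (-0.48 and -0.73). For GITRL and GITR the distal values were 0.10, which did not pass, and -1.98. For LIGHT and HVEM the ends fell by 0.63 on the log2 scale for the ligand and did not pass for the receptor (-0.10), and the reverse held in distal regions (-0.13, which did not pass, and -0.49). BAFF was higher at its end (0.25), and its receptor gene Tnfrsf13c did not pass (-0.32). The differences between partners were not tested.

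Relatives with other symbols and the signalling chain were read from a list of 49 genes. At gene ends 47 were tested, of which 15 were lower, 1 was higher and 31 did not pass, with a median of -0.10. Among all genes 24.6% were lower and 6.71% higher there, with a median of -0.09. In distal regions 41 were tested, of which 9 were lower, 10 were higher and 22 did not pass, with a median of 0.01, where 11.4% of all genes were lower and 18.3% higher. The shares of lower genes in the list and among the ligands and receptors were not tested against each other. The costimulatory ligand gene Cd70 fell at its ends from 5.82 ± 0.496 to 2.29 ± 0.633 CPM (log2 fold change -1.37 ± 0.23 (SE), adjusted p = 3.79e-06) and in distal regions from 19.8 ± 0.990 to 11.4 ± 0.915 CPM (log2 fold change -0.80 ± 0.11 (SE), adjusted p = 2.27e-08). The death receptor gene Fas fell at its ends from 15.6 ± 1.45 to 9.37 ± 1.08 CPM (log2 fold change -0.74 ± 0.12 (SE), adjusted p = 2.17e-06), and Tnip1, whose product works with the deubiquitinase A20 to restrain NF-kB, from 11.6 ± 1.67 to 6.18 ± 1.47 CPM (log2 fold change -0.90 ± 0.15 (SE), adjusted p = 5.04e-06).

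In distal regions the adaptor gene Traf2, used by many TNF receptors, fell from 27.0 ± 2.86 to 12.5 ± 2.68 CPM (log2 fold change -1.11 ± 0.11 (SE), adjusted p = 7.52e-13), and Cflar, which encodes the caspase 8 inhibitor c-FLIP, from 130.0 ± 7.31 to 88.7 ± 5.96 CPM (log2 fold change -0.55 ± 0.05 (SE), adjusted p = 9.96e-13). By class, 2 of 3 other ligands tested at their ends were lower, 3 of 8 other receptors and 10 of 35 signalling genes, beside 24.6% of all genes. The adaptor gene Edaradd, listed with the receptors, did not pass at its ends. The one gene that was higher at its ends was Casp8 (0.24, adjusted p = 0.0183), which encodes the initiator caspase of death receptors. The list also holds Cd40, which is counted among the mature dendritic cell markers as well and did not pass in either place (-0.15 at its ends and -0.12 in distal regions).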

How the data were processed

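ATAC-seq libraries of cDC1s sorted from tumours were used, 4 per day, grouped by the labels. The deposited table holds read counts per region for 128057 regions (median width 364 bp), not normalized, in 1 column per library. The tools were MACS2 2.1.0.20150603, bedtools, SAMtools, Picard 1.65 and cutadapt 1.9, and the builds named are GRCm38 and mm10, per the submitters' processing notes. The aligner, and whether regions were called per library or on pooled reads, are not given in the sources used here.

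Gene positions and promoter sequences came from RefSeq tables (GRCm38.p6), where 28 of 35 members had a promoter entry. No entry was found for Tnfrsf10b, Tnfrsf11b, Tnfrsf22, Tnfrsf26, Tnfsf12, Tnfsf4 or Tnfsf9. Counts were summed per gene within 1000 bp of either end, and in distal regions within 50 kb. Sums and single regions were filtered with filterByExpr, scaled with TMM factors of the region table (0.978 to 1.014) and compared by day with edgeR's quasi-likelihood test (edgeR 4.0.16, R 4.3.3), with Benjamini-Hochberg adjustment over the whole table. The steps were tested on simulated data. Tables and plots used Python 3.11.15, pandas 2.3.3 and matplotlib 3.10.9.

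Members with an adjusted p under 0.05 and no overlap between days, at most 12 by p at the ends and 12 in distal regions, and Tnf, Lta, Ltb, Tnfsf4, Tnfsf9, Tnfrsf1a and Tnfrsf1b, were given by library. Up to 12 of their regions by p, gene-end regions of members whose ends differ in direction, and the 3 pathway genes with the smallest p in each place were named. Other regions were named after their values were seen. The members and lists were chosen with earlier results of these data known. Alternatives were DESeq2 size factors and its Wald test (1.42.0), limma-voom (3.58.1), offsets that follow abundance, no filter, a replicate block, each library left out, windows of 500 and 2000 bp, limits of 20 and 100 kb, no shared regions and, added after seeing the data, starts only. Libraries of a day differed by 2.16 to 3.01 times the counting noise (chi-square per degree of freedom), so none was a copy of another. Depth limits regions with few counts most.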

Additional observations from a re-analysis of the deposited data

Results flagged for a closer look

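In 3 of 56 groups of 4 libraries, each a day's sums for 1 TNF superfamily gene among those given by library, 1 library lay far from the other 3 by Dixon's criterion. Chance gives about 1 in 20 such groups. At the ends of Tnfrsf4 (OX40), replicate 1 was the lowest library of day 7 at 6.81 CPM, and the others ran from 9.56 to 9.88 CPM. In the distal region of Tnf, replicate 3 was the highest library of day 21 at 12.7 CPM, and the others ran from 9.51 to 9.98 CPM. In the distal regions of Tnfrsf1a, replicate 3 was the highest library of day 21 at 56.3 CPM, and the others ran from 49.0 to 49.4 CPM.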

How the results depend on the processing

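Of 1020 recomputed values for 61 sums of members, 954 counted as unchanged, 52 lost a call, 12 gained one and 2 reversed with a call in either fit. A sum called in neither fit counted as unchanged even where its sign turned. The ends of Tnfrsf12a, for instance, ran from -0.13 to 0.09 over the alternatives without a call. Of 33 called sums, 18 kept the call in every alternative run, and the 12 regions named by p kept theirs in all 168. The reversals with a call were Tnfsf18 ends with windows of 2000 bp (0.32) and Tnfsfm13 ends with starts only (0.35). Both alternatives change which regions are summed. At gene ends, 1 ligand was higher with DESeq2 size factors, the DESeq2 Wald test, limma-voom or no shared regions. Lower ligands numbered 5 with trended offsets or no shared regions and 3 of 8 with starts only, where 26.7% of all genes were lower. The ligand median was -0.16 with trended offsets, where that of all genes was -0.0044. Higher receptors numbered 4 with trended offsets and 1 with the Wald test or no shared regions, and lower receptors 5 with windows of 2000 bp. The receptor median was 0.0423 with trended offsets, -0.11 with windows of 2000 bp, -0.10 with no shared regions and -0.16 with starts only, so its sign depended on the setting. With distal regions within 20 kb 2 ligands were higher. Apart from what each alternative changes by construction, the cause was not tested.

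Leaving out 1 library at a time gave, at gene ends, 1 to 2 higher and 7 to 10 lower ligands (median -0.31 to -0.24) and 1 to 3 higher and 3 lower receptors (median -0.0863 to 0.0060). In distal regions it gave 0 to 1 higher and 4 to 7 lower ligands (median -0.35 to -0.27) and 0 to 1 higher and 8 to 10 lower receptors (median -0.38 to -0.24). Same-numbered libraries did not deviate together (correlations 0.005 to 0.012), and the numbers were not taken as pairs. With the replicate block, 2 ligands were higher and 8 lower at gene ends (median -0.27), 2 receptors higher and 3 lower (median -0.03), and in distal regions 1 ligand higher and 7 lower, and 10 receptors lower. An exact permutation test of 4 against 4 libraries can give no p under 0.0286.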
